A study of Mus musculus with 12 samples.

Results

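Ras guanine nucleotide exchange factors were followed in dendritic cells grown from the bone marrow of mice without or with the Arc/Arg3.1 gene, after LPS and without it. The 8 genes were Rasgef1a, Rasgef1b, Rasgef1c, Rasgrp1, Rasgrp3, Rasgrp4, Sos1 and Sos2, of 22180 genes measured. Each gene was represented by a probe set annotated to that gene alone, and Rasgrp4, the only one with 2 such probe sets, by the one with the higher mean over 12 arrays. The genes were chosen by name with earlier results of these arrays known, among them the rise of Rasgef1b after LPS, so the LPS response of Rasgef1b is given as a description without a test.

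There were 4 groups of 3 arrays: LPS-treated knockout (Arc/Arg3.1-/-), LPS-treated wildtype (Arc/Arg3.1+/+), untreated knockout and untreated wildtype cells. All mice are labelled as 8 weeks old, male and of C57BL/6 background, and all cultures received 20 ng/ml GM-CSF until harvest on day 7. LPS, a bacterial product sensed through Toll-like receptor 4, was given at 100 ng/ml for 30 min. The cells were then washed and kept in medium for 1 h, and untreated cells had medium throughout. The sample titles mark the 3 arrays of a group as biological replicates without naming the animals. Each p-value of the main fit rests on the spread between arrays within the groups other than untreated wildtype, whose arrays counted as 1 sample.

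Ras and Rap proteins are small GTPases that are active when bound to GTP, and exchange factors load them with GTP by releasing GDP. Sos proteins are brought to activated receptors by the adaptor Grb2. RasGRP proteins are recruited to membranes by diacylglycerol and are best known from lymphocytes and mast cells. The RasGEF1 proteins form a small family of their own, and the human proteins RASGEF1A and RASGEF1B act on Rap2. In macrophages Rasgef1b is known as a gene induced through Toll-like receptors.

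The labels were checked before any comparison. The log2 signal of Arc was 7.68 to 8.05 in knockout cells, against 9.21 to 9.62 in wildtype cells (6 arrays each). Dendritic cell markers averaged 10.51 to 10.71 per array over 12 measured genes. The T cell (7 genes), B cell (8) and mast cell (10) marker means lay between 6.06 and 6.45, where probe sets without an annotated gene had medians of 5.89 to 6.10. Of the 10 mast cell markers, 4 had a mean above 7 in each LPS group and 2 in each untreated group. Neutrophil markers averaged 7.40 to 9.002 over 11 genes, and monocyte and macrophage markers 9.43 to 10.80 over 9 genes. On 3 arrays (LPS-treated knockout replicate 2, LPS-treated wildtype replicate 1 and untreated knockout replicate 2) Y-linked genes were at 8.14 to 9.89 and Xist at 5.63 to 5.76. On the other 9 arrays Y-linked genes were at 3.33 to 4.86 and Xist at 11.22 to 11.92, against the label male. Arrays with and without Y-linked signal stood together in 3 of the groups, and all untreated wildtype arrays were without it. Replicates 2 and 3 of both LPS groups had a lower median signal of small nucleolar RNA genes (9.55 to 9.85) than the other 8 arrays (10.44 to 11.04). The SD of the differences between replicate arrays was 0.105 to 0.108 for the 3 untreated wildtype arrays, below every pair in the other groups (0.193 to 0.438), and their mean was counted as 1 sample. In bulk samples, fewer cells of a type and less RNA per cell cannot be told apart.

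The promoters of the RasGEF1 family are shown because its members differed in their response to LPS. RefSeq promoter sequences of GRCm38.p6 (300 bases, 250 before the gene start and 50 after it) were matched by symbol for 7 of the 8 genes, with 10 promoters in all, and Rasgrp4 was not analysed here. Capitals mark matches, on either strand, to the kappa-B consensus bound by NF-kB or to a looser form of it, which leaves the fourth to sixth bases free. The looser form was added after the sequences had been seen.
Rasgef1b, chr5:99252878-99253177, minus strand: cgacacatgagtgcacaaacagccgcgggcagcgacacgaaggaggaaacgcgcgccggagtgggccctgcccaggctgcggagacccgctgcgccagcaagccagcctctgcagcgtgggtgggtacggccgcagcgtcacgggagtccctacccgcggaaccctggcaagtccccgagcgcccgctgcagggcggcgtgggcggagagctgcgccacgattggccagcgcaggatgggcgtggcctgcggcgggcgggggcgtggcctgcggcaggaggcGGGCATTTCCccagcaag
Rasgef1a, the downstream start, chr6:118066135-118066434, plus strand: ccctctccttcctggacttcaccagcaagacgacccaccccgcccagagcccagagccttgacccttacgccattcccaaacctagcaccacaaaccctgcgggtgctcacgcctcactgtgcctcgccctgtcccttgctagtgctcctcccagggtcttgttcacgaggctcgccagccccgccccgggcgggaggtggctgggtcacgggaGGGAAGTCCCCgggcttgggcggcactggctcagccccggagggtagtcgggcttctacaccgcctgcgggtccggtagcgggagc
Rasgef1c, the upstream start, chr11:49901585-49901884, plus strand: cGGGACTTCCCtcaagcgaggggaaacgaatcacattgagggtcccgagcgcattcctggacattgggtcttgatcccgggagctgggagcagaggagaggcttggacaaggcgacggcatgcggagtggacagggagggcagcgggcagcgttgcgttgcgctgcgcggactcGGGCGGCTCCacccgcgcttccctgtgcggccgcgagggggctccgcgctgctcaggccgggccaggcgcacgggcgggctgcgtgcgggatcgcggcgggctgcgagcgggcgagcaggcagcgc
The Rasgef1b window had no match to the consensus and 1 to the looser form, GGGCATTTCC, from base 33 to base 42 after the start. The consensus itself was matched by GGGAAGTCCC in Rasgef1a, from base -36 to -27, and by GGGACTTCCC in Rasgef1c, from base -249 to -240. The looser form had a further match in each of these windows, GGAAGTCCCC from base -35 to -26 in Rasgef1a, overlapping the consensus match, and GGGCGGCTCC from base -76 to -67 in Rasgef1c. The consensus was found in 4.51% of 32851 RefSeq promoters of this length, and the looser form in 19.4%. The other promoters of Rasgef1a and Rasgef1c and those of Rasgrp1, Rasgrp3, Sos1 and Sos2 had neither. None of the 10 promoters held an AP-1 motif (TGANTCA, in 7.81% of all promoters), a cAMP response element (TGACGTCA, 1.79%), its shorter core TGACGT (7.51%) or a CArG box, the motif of serum response factor (1.63%). A TATA motif (TATAAA, 13.6% of all promoters) was found in 1 of them, at Rasgrp3. It lay on the opposite strand, read as TTTATA from base -121 to -116. These matches are descriptions of the letters in each window.

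Rasgef1b was the 1 of 8 exchange factors with all LPS arrays above all untreated arrays, in both genotypes. Of all genes, 10.3% had that order in knockout and 16.2% in wildtype cells, and nothing is read from this count because the response was known. Its log2 signal was 11.55, 12.02 and 11.70 in LPS-treated knockout cells, against 7.66, 7.35 and 6.61 in untreated knockout cells. In wildtype cells it was 11.57, 11.67 and 11.84 after LPS, against 6.86, 7.07 and 7.01 without LPS. The 6 LPS arrays lay within 0.474 of each other, whereas the untreated knockout arrays alone spanned 1.05. The group means were 11.76 ± 0.24 in LPS-treated and 7.21 ± 0.54 in untreated knockout cells (SD, n = 3 each), and 11.69 ± 0.14 in LPS-treated wildtype cells (SD, n = 3), against 6.98 for the untreated wildtype cells.

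The log2 difference of Rasgef1b after LPS was 4.55 (SE 0.23) in knockout cells, which is 23.4-fold, and 4.72 (SE 0.33) in wildtype cells, which is 26.3-fold. By size of increase it ranked 3 of 22180 genes in knockout cells and 2 in wildtype cells. Without the 3 arrays with Y-linked signal these log2 differences were 4.49 in knockout and 4.78 in wildtype cells. Without the 4 arrays of low small nucleolar RNA signal, which leaves 1 LPS array for each genotype, they were 4.34 and 4.59. The folds compare array signals, which need not scale with the number of transcripts. The exons that the probe set covers were not given in the sources used here.

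**Figure D1:**
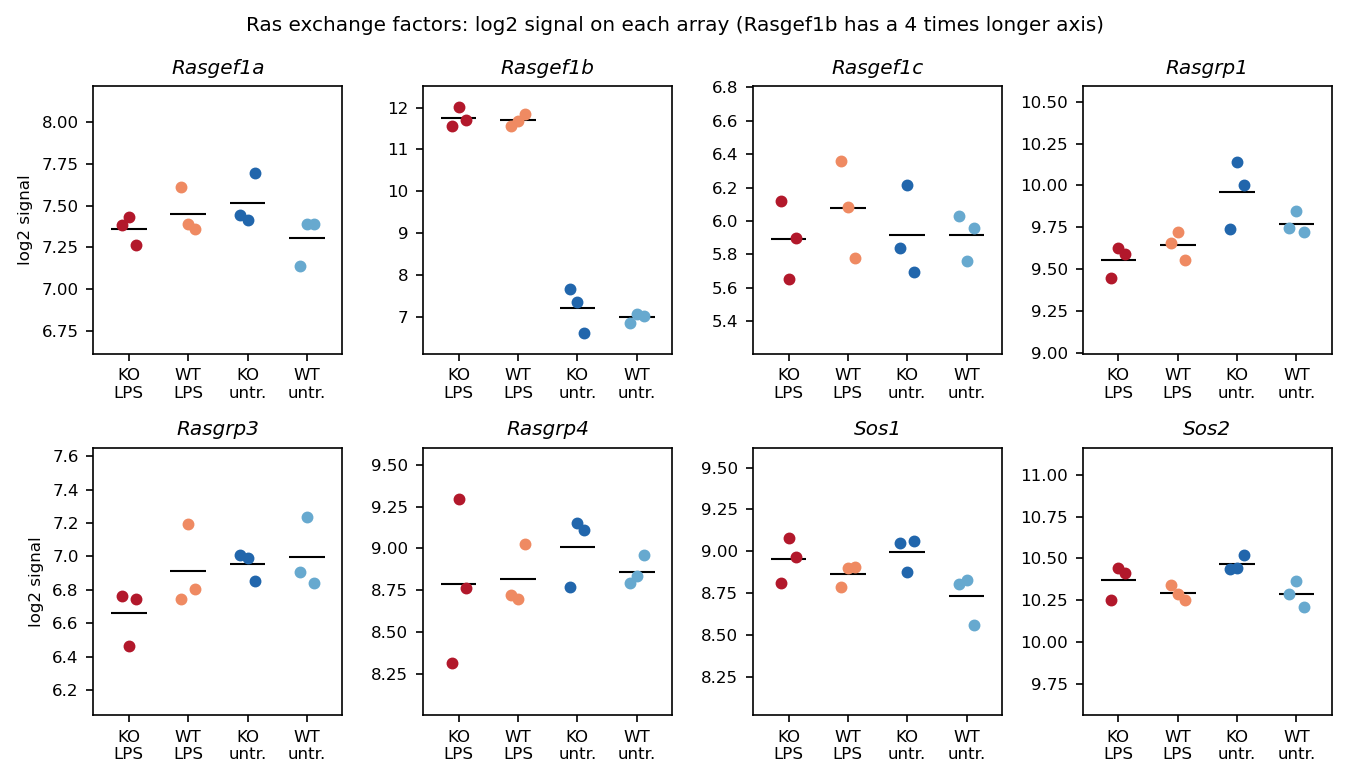
Log2 signal (vertical axis) of each exchange factor on each of 12 arrays, with points for arrays, black lines for group means and groups along the horizontal axis (KO, knockout; WT, wildtype; untr., untreated). Rasgef1b lies at 11.55 to 12.02 on the 6 LPS arrays and at 6.61 to 7.66 on the 6 untreated arrays, while each of the other genes spans less than 1 log2 unit over all 12 arrays.

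The relatives of Rasgef1b had no such difference. Rasgef1a had log2 signals of 7.38, 7.43 and 7.27 in LPS-treated and 7.44, 7.41 and 7.69 in untreated knockout cells. In wildtype cells it was at 7.61, 7.39 and 7.36 after LPS and at 7.14, 7.39 and 7.39 without it. The mean of Rasgef1a over 12 arrays was above that of 82.1% of probe sets without a gene, so a low signal limits these values. The LPS and untreated arrays of Rasgef1a overlapped in both genotypes. Its log2 difference after LPS was -0.16 in knockout cells (95% interval -0.42 to 0.11, adjusted p = 0.511 by limma) and 0.15 in wildtype cells (-0.22 to 0.52, adjusted p = 0.942).

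Rasgef1c lay at the level of probe sets without a gene, above their median on 4 of 12 arrays. Its log2 signal was 6.12, 5.65 and 5.90 in LPS-treated and 5.84, 6.21 and 5.69 in untreated knockout cells. It was 6.36, 6.08 and 5.78 in LPS-treated and 6.03, 5.76 and 5.96 in untreated wildtype cells. The LPS and untreated arrays overlapped in both genotypes. A signal of Rasgef1c was not told apart from that of probe sets without a gene, which also limits its differences given below.

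Among the RasGRP genes, Rasgrp1, the diacylglycerol-responsive Ras exchange factor of T cell receptor signalling, was the member closest to the threshold among those other than Rasgef1b. Its log2 signal was 9.45, 9.63 and 9.59 in LPS-treated knockout cells, against 9.74, 10.14 and 10.01 in untreated knockout cells. All LPS arrays lay below all untreated arrays in this genotype. The log2 difference was -0.41 (SE 0.12, 95% interval -0.68 to -0.14), with adjusted p = 0.0841 by limma over all genes. The replicate numbers paired the knockout samples, and with the replicate number as a block the adjusted p = 0.0420 by limma. With 12 arrays as 12 samples the adjusted p = 0.0395, so the call rests on the setting. In wildtype cells Rasgrp1 was at 9.66, 9.72 and 9.55 after LPS and at 9.74, 9.85 and 9.72 without it, and these arrays overlapped. The log2 difference there was -0.13 (95% interval -0.51 to 0.26, adjusted p = 0.959). The difference between both responses was -0.28 (-0.75 to 0.19, adjusted p = 0.948), so a response of Rasgrp1 particular to knockout cells was not shown.

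Rasgrp3, which acts on Ras and Rap1 and is prominent in B cells, had log2 signals of 6.77, 6.46 and 6.75 in LPS-treated and 7.01, 6.99 and 6.86 in untreated knockout cells. These groups did not overlap, but the log2 difference of -0.29 (95% interval -0.60 to 0.015) did not pass the threshold (adjusted p = 0.270 by limma). In wildtype cells Rasgrp3 was at 6.75, 7.19 and 6.81 after LPS and at 6.91, 7.24 and 6.84 without it, which overlapped. Rasgrp1 and Rasgrp3 were thus the 2 of 8 members with LPS arrays entirely below untreated arrays in knockout cells, where 14.8% of all genes had that order. In wildtype cells 0 of 8 members had it, against 13.9% of all genes. The mean of Rasgrp3 over 12 arrays was above that of 73.1% of probe sets without a gene, so a low signal limits its differences.

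Rasgrp4, known from mast cells and myeloid cells, had the widest range within a group among the 7 genes other than Rasgef1b. Its log2 signal was 8.31, 9.30 and 8.76 in LPS-treated and 8.77, 9.15 and 9.11 in untreated knockout cells, and 8.72, 8.70 and 9.03 in LPS-treated and 8.79, 8.83 and 8.96 in untreated wildtype cells. The LPS-treated knockout arrays alone spanned 0.983, and all 4 groups overlapped. The log2 difference after LPS was -0.22 in knockout (95% interval -0.70 to 0.26) and -0.045 in wildtype cells (-0.73 to 0.64). In knockout cells it was -0.51 with a term for low small nucleolar RNA signal and -0.70 without those arrays, with adjusted p = 0.226 and 0.105 by limma. It was -0.40 without the arrays with Y-linked signal, -0.47 without LPS-treated knockout replicate 2, -0.34 without untreated knockout replicate 1 and 0.018 without LPS-treated knockout replicate 1. The other probe set of Rasgrp4, at 6.06 to 6.46 and thus near the level of probe sets without a gene, had a difference of the other sign in knockout cells, 0.045.

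Markers of other cell types moved in the same comparisons. In knockout cells after LPS, 6 of 11 neutrophil markers fell (Camp, S100a8, Ltf, S100a9, Mmp8 and Ngp), with a list median of -0.975, and 3 of 9 monocyte and macrophage markers fell (Ccr2, Chil3 and Lyz2), with a median of -0.63. Of 10 mast cell markers, Hdc rose (log2 1.21, SE 0.30). In wildtype cells 1 of 11 neutrophil markers (Camp) and 1 of 9 monocyte and macrophage markers (Ccr2) fell. With 12 samples, 8 neutrophil and 3 monocyte and macrophage markers fell in each genotype. Among all genes, 2.93% were called lower in knockout and 0.234% in wildtype cells, against 5.18% and 3.26% with 12 samples. The neutrophil marker mean was 7.66 to 8.03 on LPS-treated and 8.57 to 9.002 on untreated knockout arrays. Their part in the values of Rasgrp1, Rasgrp3 and Rasgrp4 was not tested. Of the T cell and B cell markers 0 passed in either genotype, and 0 had a mean above 7 in any group. Of 12 dendritic cell markers, Zbtb46 rose in both genotypes and Irf4 in knockout cells.

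Sos1 and Sos2, the exchange factors that couple receptor tyrosine kinases to Ras, were nearly level. Sos1 had log2 signals of 8.81, 9.08 and 8.97 in LPS-treated and 9.05, 8.87 and 9.06 in untreated knockout cells. In wildtype cells it was at 8.79, 8.90 and 8.91 after LPS and at 8.81, 8.83 and 8.56 without it. Sos2 was at 10.25, 10.44 and 10.41 in LPS-treated and 10.44, 10.44 and 10.52 in untreated knockout cells, and at 10.34, 10.29 and 10.25 in LPS-treated and 10.29, 10.36 and 10.21 in untreated wildtype cells. LPS and untreated arrays overlapped for both genes in both genotypes. The 95% intervals of their LPS differences lay within -0.31 and 0.20 in knockout and within -0.30 and 0.47 in wildtype cells, with adjusted p from 0.643 to 0.998 by limma.

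Of the 7 members other than Rasgef1b, 0 were called after LPS in either genotype at an adjusted p of 0.05 by limma. Of all 22180 genes, 2.98% were called higher and 2.93% lower in knockout cells, 5.91% in all. In wildtype cells 1.34% were called higher and 0.234% lower, 1.57% in all. At an unadjusted p under 0.05 stood 1 of the 7 (Rasgrp1) in knockout cells, where 20.3% of all genes did, and 0 of the 7 in wildtype cells, where 9.91% did. Their log2 differences ran from -0.41 to -0.024 in knockout cells, with a median of -0.16, and from -0.13 to 0.16 in wildtype cells, with a median of 0.0044. The medians of all genes were -0.0037 and -0.0053. With 12 samples, 1 of the 7 was called in knockout cells (Rasgrp1, lower), where 3.93% of all genes were called higher, 5.18% lower and 9.11% in all. In wildtype cells 0 of the 7 were called with 12 samples, where 5.39% of all genes were called higher, 3.26% lower and 8.64% in all.

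**Figure D2:**
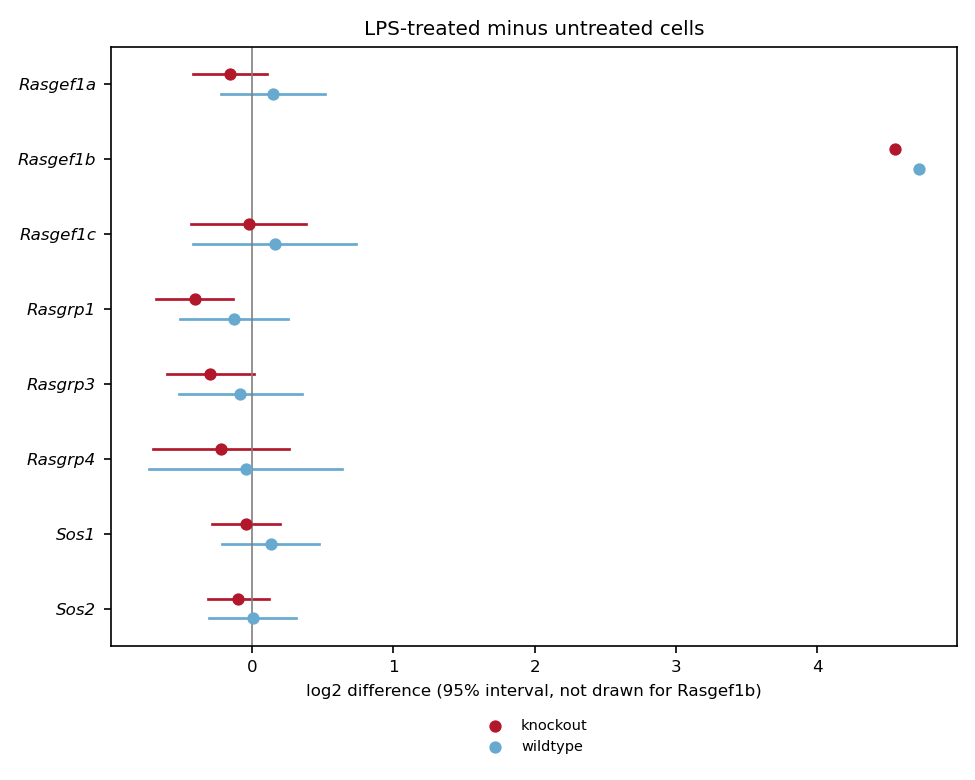
Log2 difference between LPS-treated and untreated cells (horizontal axis) for each exchange factor, with points for the limma estimate in knockout (red) and wildtype cells (blue) and lines for its 95% interval, not drawn for Rasgef1b. Rasgef1b stands at 4.55 and 4.72, and the other 7 genes lie between -0.41 and 0.16.

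Knockout and wildtype cells were compared to ask whether loss of Arc changes these genes. After LPS, 0 of 8 members differed between knockout and wildtype cells at an adjusted or an unadjusted p of 0.05 by limma, where 2 of all genes (0.00902%) were called and 3.95% had an unadjusted p under 0.05. Rasgef1b differed by 0.062 (95% interval -0.45 to 0.58, adjusted p = 0.999), which is a ratio of 1.04 with an interval from 0.732 to 1.49. The log2 differences of the other 7 ran from -0.26 (Rasgrp3) to 0.087 (Sos1). The arrays of both genotypes overlapped for all 8 members, where 2.81% of all genes had every knockout array above and 4.96% every knockout array below the wildtype arrays.

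Without LPS, 0 of 8 members passed either threshold, where 1 gene of all (0.00451%) was called and 4.04% had an unadjusted p under 0.05. Arc itself had a log2 difference of -1.48 here and was not called (adjusted p = 0.177 by limma, and 0.0008 with 12 samples). The 0 of 8 thus does not show that the members were level without LPS. In this comparison Rasgef1b differed by 0.23 (95% interval -0.50 to 0.95, adjusted p = 0.970). This value was 7.5e-06 without untreated knockout replicate 1, 0.16 without replicate 2 and 0.53 without replicate 3 of that group. Rasgef1a, Sos1 and Sos2 had all 3 untreated knockout arrays above all 3 untreated wildtype arrays, an order that 17.7% of all genes had. The opposite order was found for 0 members and 11.6% of all genes. With 12 samples 0 members passed as well, where 0.437% of all genes were called, 0.0271% higher and 0.41% lower. The log2 differences of Rasgef1a, Sos1 and Sos2 were 0.21 (-0.16 to 0.58), 0.26 (-0.08 to 0.61) and 0.18 (-0.13 to 0.49), each with adjusted p = 0.970. These arrays are set against the 3 wildtype arrays that count as 1 sample.

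The LPS response itself was compared between the genotypes through the interaction of genotype and LPS. For Rasgef1b the knockout response minus the wildtype response was -0.17 (SE 0.40, 95% interval -1.05 to 0.72, adjusted p = 0.965 by limma). As a ratio of the folds this is 0.891, with an interval from 0.481 to 1.65. All 8 members had a negative value, from -0.30 (Rasgef1a) to -0.10 (Sos2), with a median of -0.18, against a median of -0.057 over all genes. These values rest on the same arrays, with the untreated wildtype mean as 1 sample, so nothing is read from the shared sign. Of the 8 members 0 passed the threshold and 0 had an unadjusted p under 0.05. Of all genes 0 (0%) were called and 982 (4.43%) had an unadjusted p under 0.05. The genes called were 55 (0.248%) with 12 samples and 35 without LPS-treated knockout replicate 2.

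**Figure D3:**
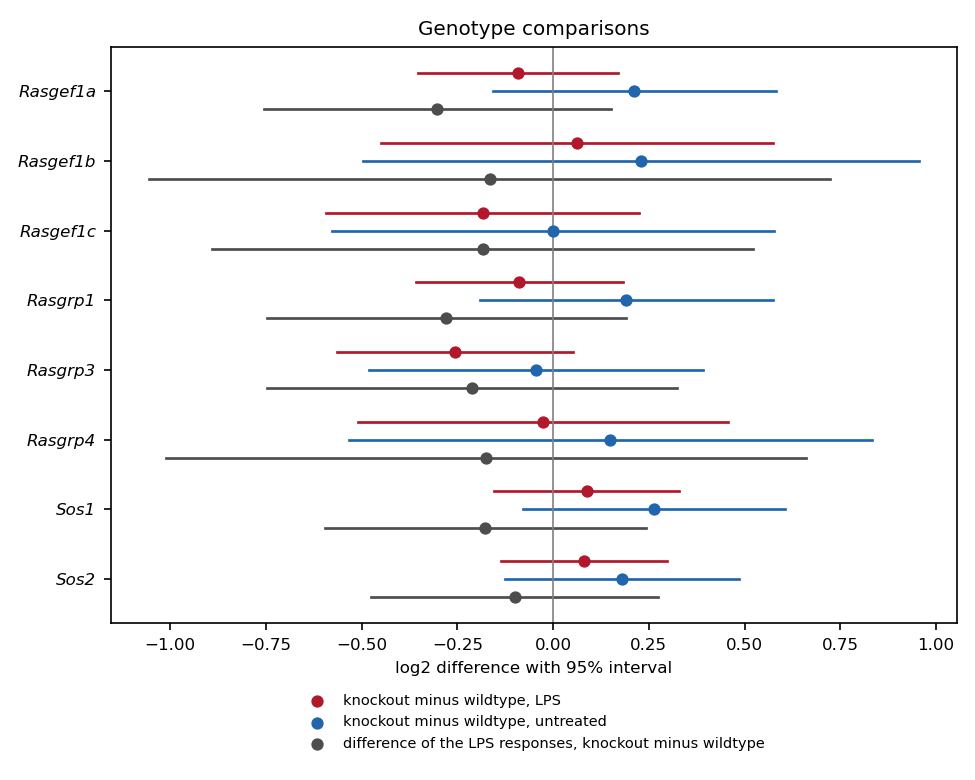
Log2 differences (horizontal axis) of each exchange factor between knockout and wildtype cells after LPS (red) and without LPS (blue), and the knockout minus the wildtype LPS response (grey), with points for the limma estimate and lines for its 95% interval. Every interval shown includes 0.

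The genes whose log2 signal followed that of Rasgef1b most closely over the 12 arrays were Tnf, Ptgs2, Cxcl10, Serpinb2, Il1a, Ccl3, Nr4a1 and Nfkbiz. These encode inflammatory cytokines and chemokines (Tnf, Il1a, Cxcl10, Ccl3), the inducible cyclooxygenase (Ptgs2), a serine protease inhibitor (Serpinb2), an orphan nuclear receptor of the immediate early class (Nr4a1) and an NF-kB cofactor (Nfkbiz). Pearson's r with Rasgef1b was 0.993 (Nfkbiz) to 0.997 (Tnf) over 12 arrays, and 553 of 18812 genes had an r above 0.9. The arrays fall into LPS-treated and untreated clusters, so this r mainly reflects that both genes differ between them.

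Within the clusters the likeness was looser. Over the 6 LPS arrays r was 0.464 (Nr4a1) to 0.789 (Cxcl10), and over the 6 untreated arrays 0.188 (Nfkbiz) to 0.905 (Serpinb2). Untreated knockout replicate 3, the array with the lowest Rasgef1b (6.61), was also the lowest of the untreated arrays for Tnf (8.39, against 8.63 to 9.42 on the other 5). The highest Rasgef1b among untreated arrays, 7.66 in untreated knockout replicate 1, went with the highest untreated Ptgs2 (7.67), Cxcl10 (7.20) and Serpinb2 (6.67). The highest untreated Tnf (9.42) and Ccl3 (10.10) were instead found on untreated knockout replicate 2. The arrays share their cultures and processing, and these values are a description.

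**Figure D4:**
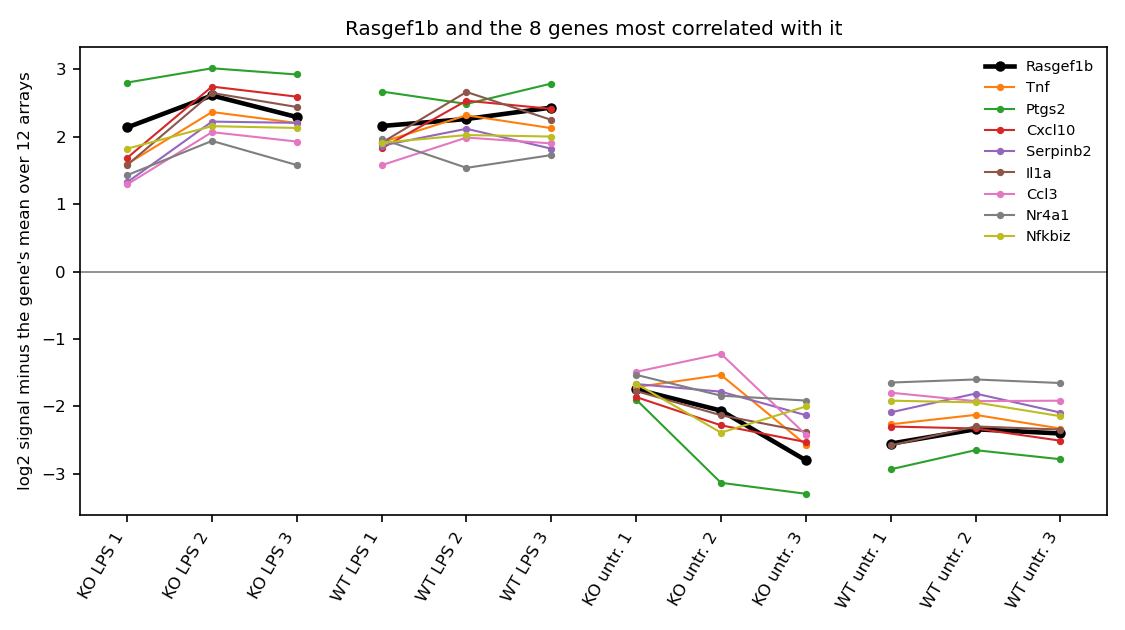
Log2 signal of Rasgef1b (black) and the 8 genes most correlated with it, each minus its own mean over 12 arrays (vertical axis), on every array (horizontal axis, lines join the arrays of a group only). All 9 genes lie above their mean on the 6 LPS arrays and below it on the 6 untreated arrays.

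Other genes of Ras and Rap signalling were taken from 8 lists of 95 genes, of which 82 were measured by a probe set of their own. After LPS, 10 rose and 1 fell in knockout cells, and 5 rose and 0 fell in wildtype cells. These are 13.4% and 6.10% of the measured genes, beside 5.91% and 1.57% of all genes. With 12 samples, 11 rose and 3 fell in knockout and 9 rose and 0 fell in wildtype cells, which are 17.1% and 11% of the measured genes, beside 9.11% and 8.64% of all genes. The lists were put together with earlier results of these arrays known. In both genotype comparisons and in the interaction 0 of 82 passed. Of all genes, 0.00451% were called between the genotypes without LPS, 0.00902% after LPS and 0% in the interaction. Nothing is read from the 0 of 82, since hardly any gene was called. The untreated wildtype arrays count as 1 sample, so a gene called in knockout cells alone is not shown to respond differently. With 12 samples each of these arrays counts as its own sample, although they differed by less than other replicates. The p-values of that setting in wildtype cells may therefore be too small.

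Among 15 other exchange factors, Rapgef2, which activates Rap1, rose in both genotypes. Its mean log2 signal was 10.27 in LPS-treated and 8.62 in untreated knockout cells (log2 difference 1.65, SE 0.17, adjusted p = 0.000348 by limma), and 10.10 in LPS-treated and 8.37 in untreated wildtype cells (1.73, SE 0.25, adjusted p = 0.00601). Ralgds, an effector of Ras that loads Ral with GTP, rose by 1.13 in knockout (SE 0.21, adjusted p = 0.0103) and by 1.47 in wildtype cells (SE 0.30, adjusted p = 0.0393). Rapgef6 rose by 1.04 in knockout cells (SE 0.15, adjusted p = 0.00266) and had a difference of 0.96 in wildtype cells (adjusted p = 0.0575). With 12 samples, which takes each untreated wildtype array as its own sample, adjusted p for Rapgef6 in wildtype cells was 0.000689 by limma. The other 12 did not pass in either genotype.

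Of 12 GTPases of the Ras family, Rheb, the activator of mTORC1, rose in knockout (0.63, SE 0.098) and wildtype cells (0.79, SE 0.14). Rap1b, which acts in integrin adhesion, rose in knockout cells (0.42, SE 0.10) and had a difference of 0.46 in wildtype cells (adjusted p = 0.206). Rit1 fell by 0.765 on the log2 scale in knockout cells (adjusted p = 0.00846) and had a difference of -0.35 in wildtype cells (adjusted p = 0.654). With each untreated wildtype array as its own sample (12 samples), adjusted p by limma in wildtype cells was 0.00631 for Rap1b and 0.109 for Rit1. Of the measured Rap2 genes 0 passed. Of 5 Rap2 effectors 0 passed, with Rassf5 closest at 0.40 in both genotypes (adjusted p = 0.121 in knockout and 0.540 in wildtype cells).

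Inhibitors of the pathway moved in part. Of 7 Sprouty and Spred genes, which restrain Ras to ERK signalling, Spred1 rose in knockout (0.77, SE 0.11) and wildtype cells (1.04, SE 0.16), and Spred2 rose in knockout cells (0.81, SE 0.18) with 1.05 in wildtype cells (adjusted p = 0.0782). Of 15 GTPase-activating proteins, which return Ras or Rap to the inactive state, Rasa2 (0.71, SE 0.17) and Sipa1l2 (0.69, SE 0.15) rose in knockout cells. In wildtype cells their differences were 0.605 and 0.48, with adjusted p = 0.391 and 0.495. Adjusted p by limma in wildtype cells was 0.00119 for Spred2, 0.0278 for Rasa2 and 0.0517 for Sipa1l2 with 12 samples. That setting takes each untreated wildtype array as its own sample.

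Of 8 kinases and scaffolds of the Raf, MEK and ERK cascade, Map3k8, the kinase that links Toll-like receptors to MEK, rose by 1.14 in knockout (SE 0.11) and by 1.17 in wildtype cells (SE 0.16). Of 11 adaptors upstream of Sos 0 passed in either genotype, with the docking protein gene Gab1 closest at -0.39 in knockout cells (adjusted p = 0.122) and 0.0024 in wildtype cells. Of 9 enzymes that make or remove diacylglycerol near RasGRP proteins 0 passed in the main fit. The kinase gene Dgkh came closest, at 0.505 in knockout (adjusted p = 0.0788 by limma) and 0.41 in wildtype cells. With 12 samples Dgkh passed in knockout cells (adjusted p = 0.0390 by limma). Medians of these 8 lists were -0.097 to 0.15 in knockout and 0.080 to 0.26 in wildtype cells.

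**Figure D5:**
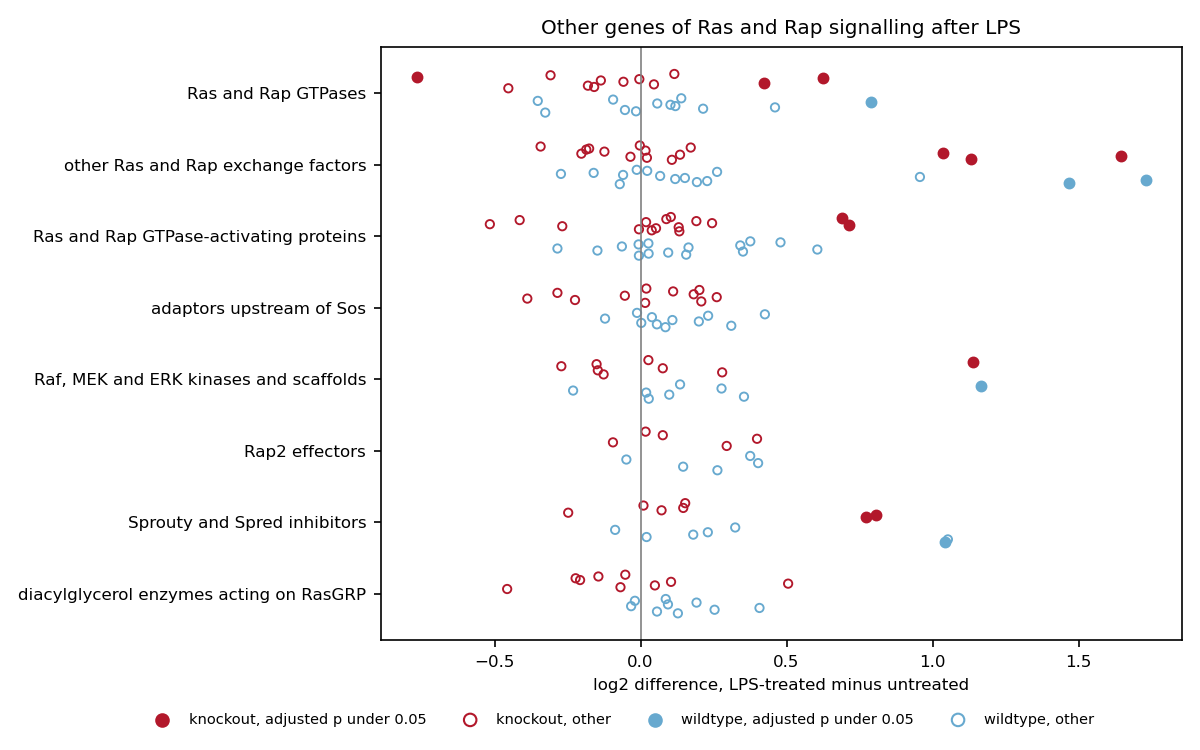
Log2 difference between LPS-treated and untreated cells (horizontal axis) for the 82 measured genes of 8 lists of Ras and Rap signalling (rows), in knockout (red) and wildtype cells (blue), with filled points for an adjusted p under 0.05 by limma. The largest increase in each genotype is that of Rapgef2, at 1.65 in knockout and 1.73 in wildtype cells.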

How the data were processed

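Gene expression was measured with 12 Affymetrix whole-transcript arrays. The deposited table holds log2 signals that the authors normalized, with the method not given in the sources used here; limma is named in the submitters' processing notes. Of 34390 probe sets, 23521 had 1 annotated gene, 1814 several and 9055 none. The probe set with the highest mean stood for each of 22180 genes.

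The members, gene lists and alternatives were chosen with earlier results of these data known. Group means were fitted with limma 3.58.1 in R 4.3.3 (lmFit, contrasts and eBayes, two-sided tests). The p-values of each comparison were adjusted after Benjamini and Hochberg over the 22180 genes, with a threshold of 0.05. The fit had 10 samples and 6 residual degrees of freedom, all groups sharing 1 estimate of the spread, and was run on simulated data. These were independent values with the same spread in every group. They therefore test neither the pairing of replicates nor the closeness of the untreated wildtype arrays. On arrays their number limits the precision. Alternatives were 12 samples, replicate blocks, quantile normalization, a filter on low signal, trend and robust estimation, only the groups compared, a term for or omission of the arrays with Y-linked or low small nucleolar RNA signal, the other Rasgrp4 probe set, and leaving out each array.

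Named genes were the 8 members, Arc, up to 3 genes with the smallest p of each pathway list, marker genes past the threshold, and the 8 genes most correlated with Rasgef1b, without predicted and small RNA genes. Tnf, Ptgs2, Cxcl10, Serpinb2 and Ccl3 values on single arrays were chosen after they had been seen.

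Residuals of arrays with the same replicate number correlated at 0.196 to 0.381 between LPS-treated and untreated knockout arrays and at 0.228 to 0.358 between the LPS groups, so the numbers paired these samples, as a result from the data. Between LPS-treated and untreated wildtype arrays (-0.028 to 0.0087) and between the untreated groups (-0.053 to -0.0090) the numbers did not pair the samples.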

Additional observations from a re-analysis of the deposited data

How the results depend on the processing

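The number of arrays limits the precision. Of the 7 members other than Rasgef1b, 0 passed the threshold for LPS in wildtype cells, and of all 8 members 0 passed in both genotype comparisons and the interaction, under every alternative. For LPS in knockout cells Rasgrp1 passed with 12 samples, with a replicate block and with only genes above the median signal. The block was used on 12 arrays, or on 10 samples, a setting added after seeing the data. For 12 samples, the block on 12 arrays, the block on 10 samples and the filter, adjusted p was 0.0395, 0.0228, 0.0420 and 0.0441 by limma. The range over all alternatives for Rasgrp1 was 0.0228 to 0.257. The replicate block changed no other call among the members. Leaving out 1 array brought none of the 7 past the threshold for LPS. The log2 difference of Rasgef1b after LPS was 4.25 to 4.78 in knockout and 4.55 to 4.79 in wildtype cells over all alternatives. Of all genes, 1311 (LPS in knockout), 349 (LPS in wildtype), 1 (untreated genotypes), 2 (genotypes after LPS) and 0 (interaction) were called, against 2021, 1917, 97, 2 and 55 with 12 samples and 2539, 2437, 223, 3 and 112 with the replicate block on 12 arrays. With the block on 10 samples 2312 were called for LPS in knockout and 4 for genotypes after LPS. With only the groups compared, which the interaction does not allow, 196 were called for LPS in wildtype and 1 for genotypes after LPS. Without the low small nucleolar RNA arrays the counts were 562 (LPS in knockout), 76 (LPS in wildtype) and 1 (genotypes after LPS), and with a term for them 4 (genotypes after LPS) and 2 (interaction). Without the arrays with Y-linked signal they were 5 (genotypes after LPS) and 6 (interaction). Leaving out 1 array gave 615 to 1667 (LPS in knockout), 184 to 452 (LPS in wildtype), 1 to 2 in each genotype comparison and 0 to 35 (interaction). For LPS in knockout the counts were 615 without LPS-treated knockout replicate 3 and 737, 764 and 657 without untreated knockout replicates 1, 2 and 3. For LPS in wildtype they were 184 without LPS-treated wildtype replicate 3 and 231 without LPS-treated knockout replicate 3. Rasgef1c did not pass the filter on low signal.

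Signs turned only for differences that passed the threshold under neither setting, and the cause was not tested. With quantile normalization they were 0.019 for Sos1 (LPS in knockout), -0.082 for Sos2 (LPS in wildtype) and 0.024 for Rasgrp3 (untreated genotypes). With a term for Y-linked signal they were -0.057 for Rasgef1c and 0.0093 for Rasgrp3 (untreated genotypes) and -0.012 for Sos2 (LPS in wildtype). Without those arrays they were 0.24 (LPS in knockout), -0.15 (untreated genotypes), 0.078 (genotypes after LPS) and 0.23 (interaction) for Rasgef1c, 0.0017 for Rasgrp3, 0.0028 for Rasgrp4 and -0.019 for Sos2 (LPS in wildtype), and -0.13 for Rasgef1b and -0.015 for Sos1 (genotypes after LPS). With a term for low small nucleolar RNA signal they were 0.23 for Rasgef1c (LPS in knockout) and -0.031 for Sos2 (LPS in wildtype). Without those arrays they were 0.21 for Rasgef1c (LPS in knockout), -0.022 for Rasgef1b, 0.020 for Rasgrp3 and -0.085 for Sos2 (genotypes after LPS), and 0.064 for Rasgrp3 (interaction). The other probe set of Rasgrp4 gave 0.045 (LPS in knockout), -0.023 and 0.14 (genotypes without and after LPS) and 0.17 (interaction). Leaving out 1 array moved LPS in wildtype between -0.22 and 0.038 for Rasgrp3, -0.15 and 0.014 for Rasgrp4, and -0.035 and 0.043 for Sos2. It moved LPS in knockout between -0.14 and 0.13 for Rasgef1c, -0.47 and 0.018 for Rasgrp4, and -0.11 and 0.027 for Sos1. Untreated genotypes moved between -0.15 and 0.11 for Rasgef1c and -0.12 and 0.076 for Rasgrp3, genotypes after LPS between -0.070 and 0.17 for Rasgef1b and -0.28 and 0.21 for Rasgrp4, and the interaction between -0.46 and 0.062 for Rasgef1b and -0.43 and 0.063 for Rasgrp4.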
